A study of Mus musculus with 12 samples.

Results

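Lmo2 encodes a LIM-only adaptor protein that joins DNA-binding factors of blood stem cells into a common complex. The LIM domains bind no DNA themselves, and the protein is held in the complex by Ldb1 and by the basic helix-loop-helix factors Tal1 and Lyl1. The gene is required for blood formation and is a known oncogene of T cell leukaemia. It is read from alternative promoters, in the direction of rising coordinates on mouse chromosome 2. Some of its known blood enhancers lie far upstream, on the side of the neighbouring gene Caprin1. The contacts of its captured promoters in fetal and adult haematopoietic stem cells (HSCs) are described here.

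All contacts of the deposited table whose promoter name is Lmo2, with or without a numeric suffix, were taken. This gave 22 of 89545 contacts, from 2 of 3781 promoter entries. The entry named Lmo2_1 (transcript ENSMUST00000156813) is a captured fragment at positions 103797394 to 103798430 of chromosome 2, build mm9, with a length of 1037 bp and 14 listed contacts. The entry named Lmo2 (ENSMUST00000138815) is a fragment at 103810264 to 103810464, of only 201 bp, with 8 listed contacts. Their midpoints lie 12.5 kb apart, and they are called the upstream and the downstream fragment below. An mm9 gene annotation was not used here, so the bins are given by coordinates and by the marks in the table, without exon or intron.

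The series compares promoter contact maps of fetal and adult HSCs, which its design text gives as the purpose. In Promoter Capture-C, cross-linked chromatin is cut with DpnII and ligated, and the ligation products of chosen promoters are enriched with oligonucleotide probes before sequencing. Fetal cells came from liver at embryonic day 14.5 and adult cells from bone marrow of mice 6 to 8 weeks old, in both cases of the strain B6129SF1 and sorted as Lin-Sca1+cKit+CD135-. For each population 4 libraries were made, 2 per batch. The HPC7 cell line, wild-type or TCF3-knockout (2 samples each), was not analysed here.

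Both Lmo2 fragments belong to the first batch. The table gives 1 count and 1 score per contact and population, so no value below has a replicate error, and no test between the populations was possible. A contact joins a fragment to a distal bin of 2 kb, and the authors called it in a population where its score is above 0. The smallest score of a call was 1.3 in this batch. Contacts that were called in neither population are not in the table, so a bin without an entry has no known count. Intervals are exact 95% Clopper-Pearson intervals and cover counting error only. Over all listed contacts the first batch held 1312829 fetal and 1098957 adult counts, which is not the depth of the libraries.

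All 22 contacts lay upstream of their fragment. None ran into or past the gene. Of the first-batch promoters with at least 8 contacts within their chromosome, 10.3% had all of them on 1 side. The contacts fell into 18 distinct bins. Of these, 16 lay within a stretch of 50 kb that begins roughly 40 kb upstream of the upstream fragment. The other bins lay farther out, at 161 kb and at 361 kb from the upstream fragment. The nearest listed bin was 40.9 kb from the upstream and 69.4 kb from the downstream fragment, while the median first-batch promoter had its nearest at 53.0 kb.

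In all, 16 of the 22 contacts were called in adult and 9 in fetal cells, against 61.1% and 64.6% of all first-batch contacts. By class, 13 were called in adult cells only, 6 in fetal cells only and 3 in both. Over all 49944 first-batch contacts these classes made up 35.4%, 38.9% and 25.7%. The adult-only contacts came mostly from the upstream fragment, which was called with more bins in adult than in fetal cells. It had 12 adult and 4 fetal calls, of which 2 were shared, a log2 ratio of fetal to adult calls (1 added to each) of -1.38. The downstream fragment had 4 adult and 5 fetal calls, of which 1 was shared, and a log2 ratio of 0.26. Over both fragments, 3 of 9 fetal and 3 of 16 adult calls were shared, against 39.8% and 42.1% in the batch. Adult calls outnumbered fetal calls at 42.1% of all first-batch promoters, and fetal calls outnumbered adult calls at 48.1%. A log2 ratio of -1 or lower was found at 4.82% of the 1472 promoters with at least 8 contacts, and 24 of them, the upstream fragment included, were at or below its value. Many of the calls behind this ratio had low scores. Of the 12 adult calls of the upstream fragment, 6 scored below 2 and 9 below 2.3, and 2 of its 4 fetal calls scored below 2. At a score of at least 2, a limit chosen after seeing the data, 6 adult and 2 fetal calls remained (log2 ratio -1.22). At a score of at least 2.3, the upstream fragment kept 3 adult and 2 fetal calls (log2 ratio -0.42). That limit is a p-value 10 times smaller than that of the weakest call if the score is a −log10 p-value. With called bins up to 5 kb apart merged, the fragment had 5 adult and 3 fetal regions (-0.58).

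**Figure D1:**
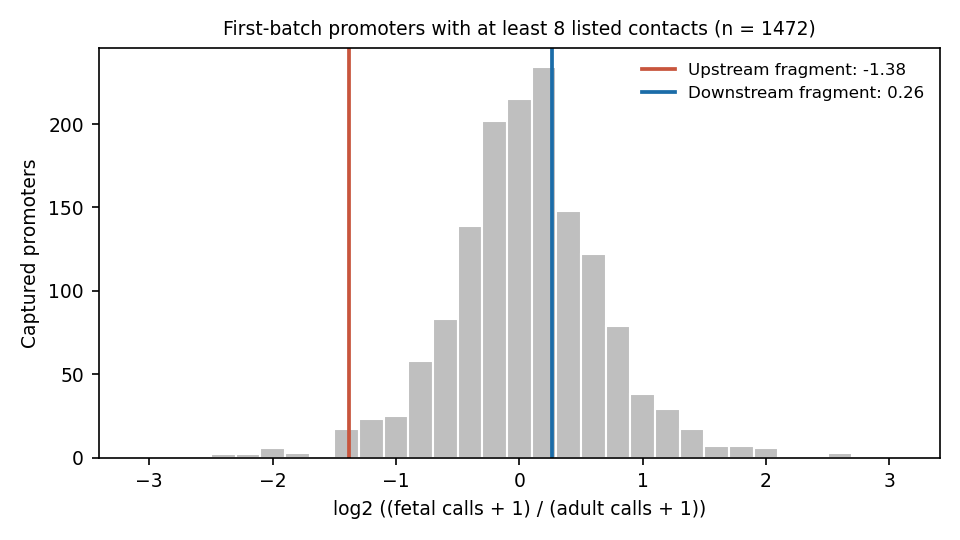
Distribution over the 1472 first-batch promoters with at least 8 listed contacts of the log2 ratio of fetal to adult calls (x axis, 1 added to each number of calls), with the number of promoters on the y axis. The upstream Lmo2 fragment, at -1.38, lies in the adult-rich tail, and the downstream fragment, at 0.26, lies near the middle.

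The counts differed less than the calls. Adult counts were higher at 13 of the 22 contacts, fetal counts at 7, and 2 were equal, and adult counts were higher at 43.0% of all first-batch contacts. Over its 14 listed bins (28 kb) the upstream fragment had 191 fetal and 230 adult counts, a mean of 13.6 and 16.4 per bin. The fetal share was 45.4% (40.5 to 50.3), an interval that includes equal raw counts. Over its 8 bins (16 kb) the downstream fragment had 102 fetal and 92 adult counts, a mean of 12.8 and 11.5 per bin, with a fetal share of 52.6% (45.3 to 59.8). The fetal share over all listed contacts of the batch was 54.4%, without contacts of at least 1000 counts 52.8%, and by the median ratio of shared contacts 51.7%. The interval of the upstream fragment lies below each of these shares, and that of the downstream fragment includes them. Scaled by those totals, the log2 ratio of the counts, fetal over adult, moved from -0.27 to -0.52 at the upstream fragment and from 0.15 to -0.11 at the downstream fragment, so the direction at the downstream fragment was not settled. The bins of both fragments are in the table because of their calls, so these shares are no independent measure of the calls. For each single contact the interval of the fetal share included 50%, in 22 of 22 cases. Over all first-batch contacts the interval excluded equal counts in 11.7%.

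**Figure D2:**
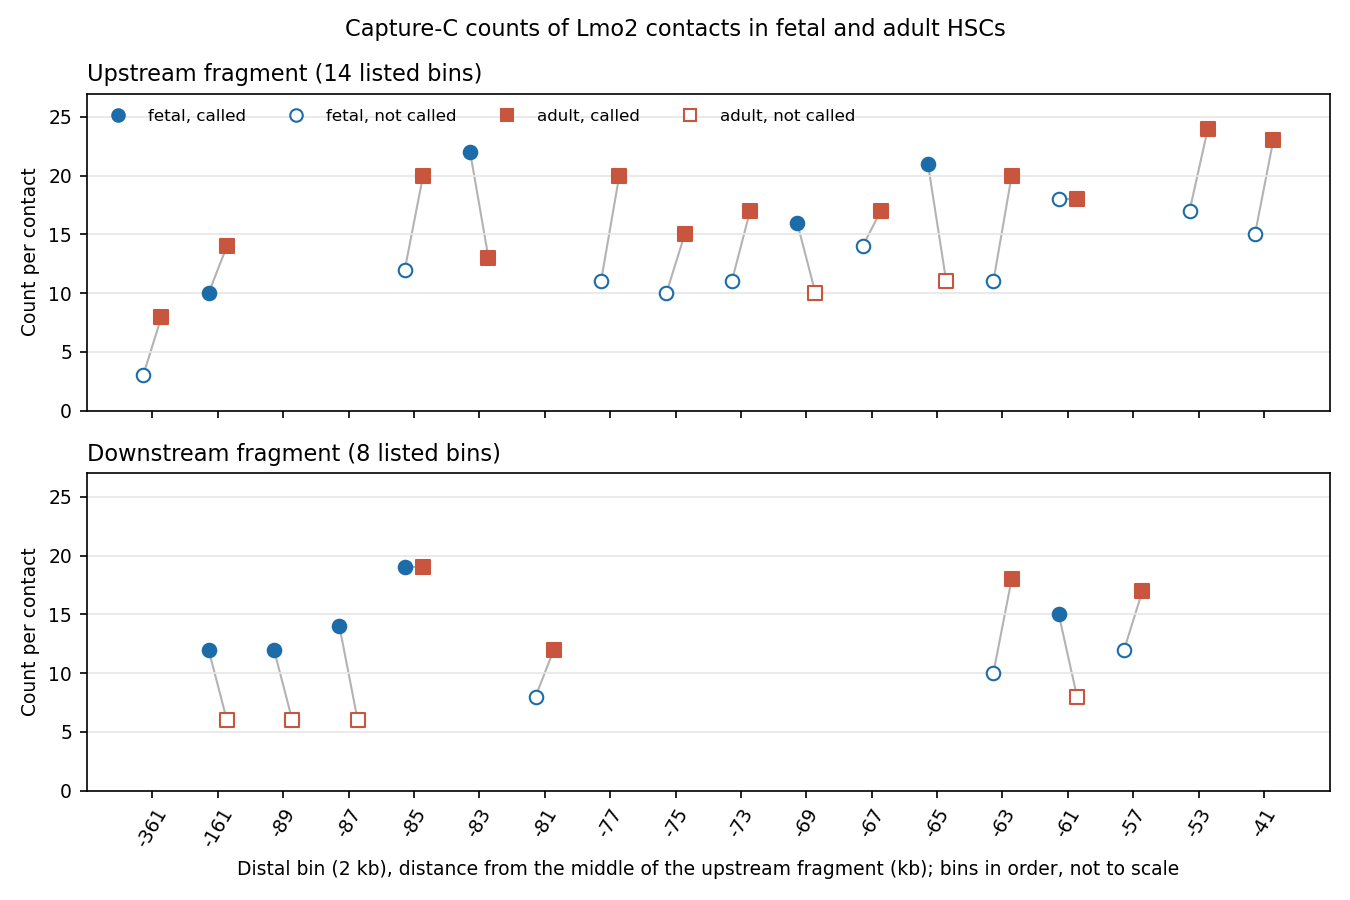
Counts per contact (y axis) in fetal (circles) and adult cells (squares) for the 18 distal bins listed for Lmo2, in order of their distance from the upstream fragment (x axis, in kb, not to scale). Filled symbols are calls; from the upstream fragment 12 adult and 4 fetal symbols are filled, and from the downstream fragment 4 and 5, although counts of both populations overlap in range.

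From both fragments 4 bins were listed, 28.6% of the bins of the upstream and 50% of those of the downstream fragment. Of the 18 bins, 22.2% were thus common. Among 84 other pairs of first-batch promoters of the same gene that lie 5 to 25 kb apart, with at least 5 bins each, the median common share was 13.7%, and 21 pairs reached the Lmo2 value. The fragments of Lmo2 differed by 1.64 in their log2 ratio of calls, against a median of 0.42 over those pairs, of which 8 differed at least as much.

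The common bins show how the same stretch of chromatin was scored from either promoter. The farthest of them (103636001 to 103638001) had 10 fetal and 14 adult counts from the upstream fragment and was called in both populations, with scores of 1.98 and 3.63. From the downstream fragment it had 12 fetal and 6 adult counts and was called in fetal cells only, with a score of 3.11. The order of the counts was thus opposite from either promoter, within counting error.

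At the bin from 103712001 to 103714001, the downstream fragment had 19 counts in each population and the highest adult score of the gene, 4.27, beside a fetal score of 3.78. From the upstream fragment the same bin had 12 fetal and 20 adult counts and was called in adult cells only (score 3.43). It was thus a shared contact of one promoter and an adult-only contact of the other.

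Further in, adjacent bins differed in whether the promoters gave the same class. At 103734001 to 103736001 both fragments were called in adult cells only, with 11 fetal and 20 adult counts from the upstream and 10 and 18 from the downstream fragment. This was the sole bin with the same class from both promoters. At 103736001 to 103738001 the upstream fragment had 18 counts in each population, yet was called in adult cells only, at a score of 1.54. The downstream fragment had 15 fetal and 8 adult counts there and was called in fetal cells only, at 1.49. Over the 4 common bins the fetal share was 41.5% (32.7 to 50.7) from the upstream and 52.3% (42.5 to 62.1) from the downstream fragment, so the intervals overlapped.

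Equal counts with unequal calls show that a call was not a matter of the count alone. From the upstream fragment the lowest fetal count that was called was 10, at 161 kb, while the highest fetal count that was not called was 18, at 60.9 kb. In adult cells the lowest count called there was 8, at 361 kb, and the highest not called was 11. Such cases were a minority. Among adult-only contacts of the batch between 40 and 110 kb, the fetal count equalled or exceeded the adult count in 10.03%. Among fetal-only contacts at that distance, the adult count equalled or exceeded the fetal count in 0.147%.

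The upstream fragment had 10 adult-only bins, where counts in adult cells were higher in 9 and equal in 1. These bins were chosen by their adult score, so the direction of their counts is a description. The highest adult counts were at the bins nearest to the gene, with 17 fetal and 24 adult counts at 52.9 kb and 15 and 23 at 40.9 kb. A row of 3 adjacent bins, 72.9 to 76.9 kb away, had 11 and 17, 10 and 15, and 11 and 20 counts in fetal and adult cells. The bin at 66.9 kb had 14 and 17 counts, and the remote bin at 361 kb (103436001 to 103438001) had only 3 and 8. In the whole batch, the median adult-only contact at 40 to 110 kb had a fetal count of 10 and an adult count of 14.

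Fetal calls of the upstream fragment sat between the adult ones. The bin at 82.9 kb (103714001 to 103716001) had the highest fetal count of the gene, 22 against 13 adult counts, and was called in both populations (scores 3.37 and 1.85). The fetal-only bins at 68.9 and 64.9 kb had 16 and 21 fetal against 10 and 11 adult counts. Each of them was next to a bin that was called in adult cells only. Median distances of calls were 75.9 kb over the fetal and 73.9 kb over the adult ones.

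The calls of the downstream fragment were partly ordered by distance. Its fetal-only bins included the outer ones, at 173, 101 and 99.4 kb, with 12 and 6, 12 and 6, and 14 and 6 counts in fetal and adult cells. Its adult-only bins lay at 93.4, 75.4 and 69.4 kb, with 8 and 12, 10 and 18, and 12 and 17 counts. The fetal-only bin at 73.4 kb, described above, broke this order. The median distance was 99.4 kb over 5 fetal and 84.4 kb over 4 adult calls, too few to rank the populations.

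Several of the distal bins are marked in the table as active enhancers, regions that carry marks of enhancer activity in the population named. Of the 18 bins, 7 were active enhancers in adult cells, 4 of these also in fetal cells, and 0 in fetal cells only. Over all distinct bins of the first batch, 3.11% were active enhancers in adult cells only, 8.18% in both and 4.04% in fetal cells only. The 7 bins formed 4 runs of adjacent bins, so they are not 7 separate elements. All 7 were open chromatin in both populations, as were 10 of the 18 bins, against 41.4% of all distinct bins. A further bin was open in fetal cells only, and 6 bins had neither a mark nor open chromatin.

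**Figure D3:**
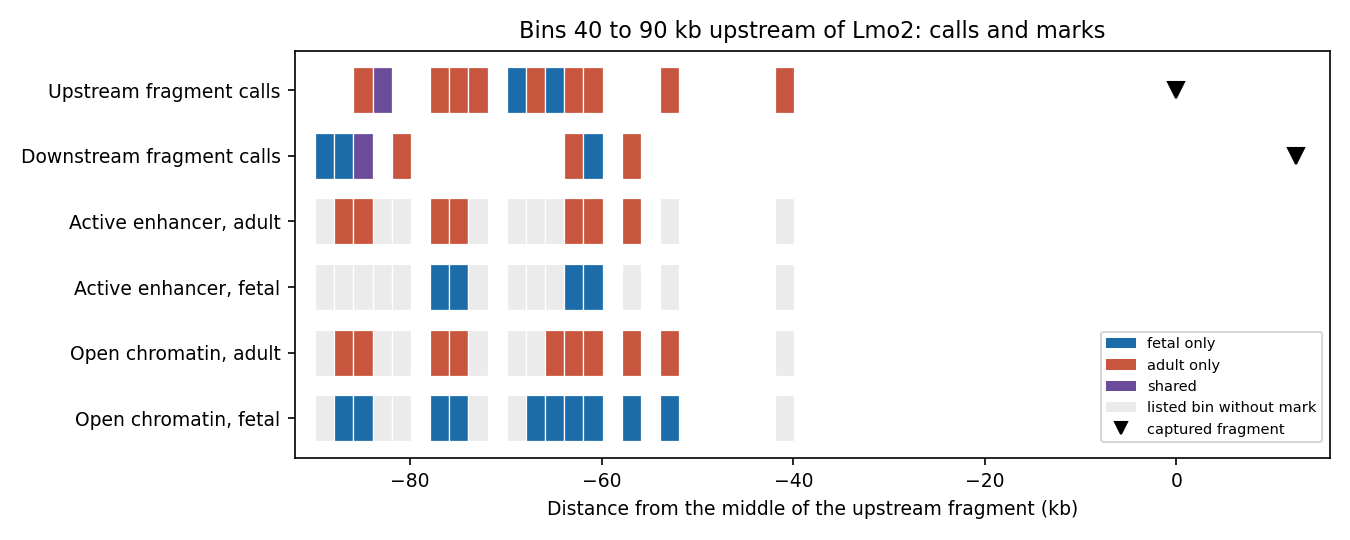
Map to scale of the 16 nearer bins (x axis, distance in kb from the middle of the upstream fragment), with the class of each call per fragment in the upper rows and the enhancer and open-chromatin marks of each population in the lower rows. Active enhancer bins of adult cells form 4 runs, and 2 of these runs are also active in fetal cells.

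The runs active in adult cells only lay at 103710001 to 103714001 and at 103740001 to 103742001. From the downstream fragment their 3 bins had 14 and 6, 19 and 19, and 12 and 17 counts in fetal and adult cells, so that 1 was higher in fetal cells, 1 equal and 1 higher in adult cells. There were 2 calls in each population. From the upstream fragment only 1 of these bins was listed, with the 12 fetal and 20 adult counts given above.

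The runs active in both populations lay at 103720001 to 103724001 and at 103734001 to 103738001. From the upstream fragment all 4 of these bins were called in adult cells and 0 in fetal cells, with 50 fetal and 73 adult counts. Together with the bin active in adult cells only, its 5 bins at active enhancers of adult cells had 62 fetal and 93 adult counts. All 5 are adult-only calls, listed through their adult score alone, so their higher adult counts restate the calls. From the downstream fragment 2 of the bins active in both populations were listed, with 25 fetal and 26 adult counts and 1 call in each population. Over its 5 bins at active enhancers of adult cells it had 70 fetal and 68 adult counts, with 3 calls in each population.

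By calls, 5 of 12 adult calls of the upstream and 3 of 4 of the downstream fragment were at active enhancers of adult cells, against 13.1% of all adult calls of the batch. Of the fetal calls, 0 of 4 and 1 of 5 were at active enhancers of fetal cells, against 12.7% of all fetal calls. Counting a mark in either population, 3 of the 5 fetal calls of the downstream fragment (60%) were at active enhancers, beside 75% of its adult calls, and still 0 of the 4 fetal calls of the upstream fragment. The bin of 103716001 to 103718001, called in adult cells from the downstream fragment, was marked as a primed enhancer in adult cells, as were the bins of 1.36% of all contacts of the batch, and no other Lmo2 bin had a primed, poised or bivalent mark.

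A single bin was marked as an active promoter, in adult cells only, and this was the bin at 103636001 to 103638001 that both fragments reached. It was open in both populations. Over all distinct bins of the batch 1.49% were active promoters in adult cells only. It lies between the captured fragments of Nat10 (103598529 to 103598871), which encodes an RNA acetyltransferase, and of Lmo2. The RefSeq gene list of GRCm38, used only for the order of genes, has Caprin1, which encodes an RNA-binding protein, as the protein-coding gene between Nat10 and Lmo2. No Lmo2 bin held the captured fragment of another promoter with listed contacts.

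No other captured promoter of either batch was listed with any of the 18 bins, and 0 contacts of other promoters ended on the Lmo2 fragments or between them. The nearest neighbour with listed contacts, Nat10, whose fragment lies 199 kb from the upstream fragment, had 6 fetal and 5 adult calls, with 1 shared. Of its 10 bins, 5 lay on the far side and 5 on the side of Lmo2. On that side were a bin short of the Lmo2 stretch (103686001 to 103688001, 9 fetal and 16 adult counts) and 4 bins beyond both Lmo2 fragments. Of the 12 genes listed as neighbours only Nat10 and Apip had listed contacts. The others were either not captured or had no called contact.

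In numbers of calls, 5 first-batch promoter entries had exactly the 5 fetal, 4 adult and 1 shared calls of the downstream fragment, of which Eif2s2, Msmp and Psma5 come first by name. The upstream fragment had no exact match. Nearest to it were Ccdc28b, Orai3 and Sdsl, each with 5 fetal, 12 adult and 2 shared calls (Euclidean distance of 0.26 on the log2 scale over the 3 numbers).

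Expression of Lmo2 was high in both populations and higher in adult cells. The authors' FPKM value was 125 in fetal and 270 in adult cells at the upstream fragment, and 125 and 262 at the downstream fragment. The log2 ratio of fetal to adult FPKM (1 added to each) was -1.11 and -1.06. The median promoter entry of the batch had 8.60 FPKM in fetal and 10.1 in adult cells, and only 56 of 1952 entries had an adult value at least as high as the upstream fragment, itself included. The authors' deposited table marks both entries as differentially expressed, as it does 35.5% of the entries of the batch, and 13.3% of the entries had an adult value at least 2 times the fetal value on the same log2 scale. With 1 value per population this difference has no replicate check. The near-equal values of the entries do not divide the expression of the gene between its promoters.

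Markers of maturing cells in the same table differed in the opposite direction. Mpo, Elane and Marco, listed as myeloid markers, summed to 65.3 FPKM in fetal and 3.43 in adult cells, with 3 of 3 higher in fetal cells. Of the erythroid markers, Hba-a1, Hbb-b1 and Klf1 are reported here and summed to 36.6 and 2.65 FPKM, with each of these 3 higher in fetal cells, and Hba-a1 and Marco were nearly at 0 in adult cells. The HSC genes Kit, Meis1, Mecom, Gata2, Hlf, Erg and Tal1 were detected in both populations, at sums of 150 and 254 FPKM (entries of a gene averaged), with 7 of 7 higher in adult cells. By entry, the adult value ran from 1.07 times the fetal one at Mecom_1 to 2.62 times at Gata2, with 1.14 times at Tal1. The median entry of the first batch was also higher in adult cells, at 8.60 fetal and 10.1 adult FPKM. Flt3, which encodes the CD135 excluded by the sort, was at 6.20 and 3.81 FPKM. Lymphoid markers had no listed contacts, so no FPKM value was given for them. The part of these markers in the difference of Lmo2 was not tested, and fewer cells of a type cannot be told apart from less RNA per cell.

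**Figure D4:**
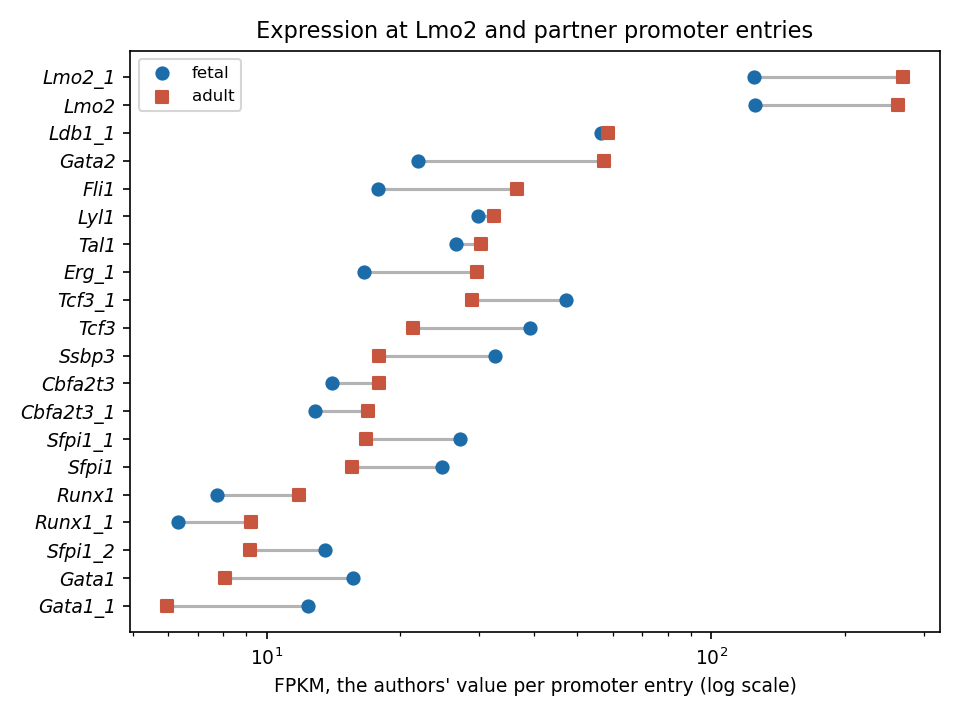
The authors' FPKM values (x axis, log scale) in fetal (circles) and adult cells (squares) at the promoter entries of Lmo2 and of its listed partner genes (y axis). Both Lmo2 entries lie above all partner entries in either population, at 125 FPKM in fetal and at least 262 in adult cells.

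The genes listed as partners of Lmo2 were compared by the same measures. Of 14 genes, 12 had listed contacts, with 18 promoter entries. Of these entries 10 had more adult calls, 6 more fetal calls and 2 equal numbers, with a median log2 ratio of -0.27. Over all first-batch promoters, 42.1% had more adult and 48.1% more fetal calls. The entry of Ssbp3 came from the second batch, where the smallest score of a call was 2, against 1.3 in the first. The bridging factor Ldb1 had 1 fetal and 7 adult calls at the captured entry Ldb1_1, at 56.4 and 58.6 FPKM. Lyl1 had 7 and 12 calls at 30.0 and 32.4 FPKM, and its relative Tal1 had 17 and 14 calls at 26.7 and 30.4 FPKM. FPKM was nearly level between the populations at these entries, while adult calls were more numerous at Ldb1_1 and Lyl1 and fetal calls at Tal1.

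Among the other partners, the GATA factor Gata2 had 30 calls in each population while its FPKM was 21.9 in fetal and 57.3 in adult cells. Gata1, the GATA factor of the erythroid lineage, was at 15.6 and 8.09 FPKM with 3 calls in each at the entry Gata1. Its entry Gata1_1 had 1 fetal and 0 adult calls at 12.4 and 5.98 FPKM. The E protein Tcf3, which pairs with Tal1 and Lyl1, had 21 and 26 calls at 39.0 and 21.3 FPKM at the entry Tcf3. At Tcf3_1 there were 4 and 6 calls, at 47.1 and 28.9 FPKM. The ETS factors Fli1 (0 fetal and 1 adult call) and Erg (3 and 2 calls at the captured entry Erg_1) had FPKM of 17.8 and 36.6, and of 16.6 and 29.7. The ETS factor PU.1, whose gene Spi1 the table lists as Sfpi1, had 3 entries, each with more adult than fetal calls. The fetal and adult calls were 1 and 2 at Sfpi1, 5 and 8 at Sfpi1_1, and 2 and 4 at Sfpi1_2. Its FPKM was higher in fetal cells at each entry, with 24.8 and 15.5, 27.2 and 16.8, and 13.5 and 9.17. Averaged over entries, FPKM was higher in adult cells for 8 of the 12 genes. The median entry of the first batch was higher in adult cells as well, at 8.60 fetal and 10.1 adult FPKM. Of the 18 entries, 8 were marked as differentially expressed, against 35.5% of all first-batch entries. Tcf12 and Ssbp2 had no listed contacts. The LIM-only relative Lmo1, captured in the second batch, had 2 fetal and 1 adult calls at 1.89 and 1.17 FPKM.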

How the data were processed

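Reads were trimmed with Trim Galore 0.41 and aligned with Bowtie2 2.2.2 to mm9, as far as the submitters' processing notes name these tools and this build. The read filters and the treatment of duplicates are not given in the sources used here. Each contact has, in the table as deposited, 1 whole-number count for fetal and 1 for adult cells, pooled over the libraries of a batch in a way that is not stated. The authors deposited a score per contact that behaves as a −log10 p-value, and FPKM values per promoter and 0 or 1 marks of distal bins from other assays, whose making is not stated.

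From the deposited table were computed calls (score above 0), classes, distances between midpoints, shares of counts with exact 95% intervals and log2 ratios (1 added to calls and FPKM). No test was made, since 1 pooled count per population leaves no replicate error. The planned count test per library could not be run, and leaving out single libraries was not possible. Scripts were tested on simulated data and used Python 3.11.15, pandas 2.3.3 and SciPy 1.17.1. The members and gene lists were chosen with earlier results of these data known. All bins of both fragments and all genes of the lists with listed contacts were eligible to be named. Most similar promoters were those with the closest numbers of calls. Genes of the lists were matched by symbol or, where absent, by a RefSeq synonym (GRCm38), which gave 1 further gene, Spi1. Percentages over all contacts or promoters refer to the first batch. A further gene of the erythroid marker list is not reported here.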

Additional observations from a re-analysis of the deposited data

How the results depend on the processing

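Depth limits every comparison, as no Lmo2 contact had more than 24 counts in a population. Of 86 values under alternative settings, 55 stayed within the interval of the main value or within 1.5 times, 26 moved and 5 changed sign. For ratios and shares of calls, the interval took the bins of a promoter as independent, which they are not. Staying within it is thus a loose criterion for those values. The log2 ratios of calls and of FPKM and the counts of the upstream fragment were among those that stayed. Part of the 55 could not have moved. Every contact lay on the chromosome of its fragment and at least 40.9 kb away. Limits of 20 kb and of the same chromosome thus removed no call. For median distances of 4 or 5 calls the interval was the full range of the calls, which holds the median of any subset. At a score of at least 2.3 the median of the downstream fetal calls went from 99.4 to 135 kb. Adding 0.1 instead of 1 to FPKM changes little at the level of Lmo2. Within its wide interval, the log2 ratio of calls at the upstream fragment still ranged from -1.38 to -0.42, and that at the downstream fragment from 0 to 0.42. At a score of at least 2.3, the downstream fragment kept 2 fetal and 2 adult calls and the upstream fragment 2 and 3. This limit is a p-value 10 times smaller if the score is a −log10 p-value. At a score of at least 2, chosen after seeing the data, the downstream fragment kept 3 fetal and 3 adult calls. The upstream fragment kept 2 fetal and 6 adult calls there. Merging bins left 3 fetal and 2 adult regions at the downstream fragment and 3 fetal and 5 adult regions at the upstream one. The shared part of calls at the upstream fragment, 50% of fetal and 16.7% of adult calls, was 0% at either stricter score. With bins within 5 kb matched it rose to 100% and 58.3%, and within 20 kb to 100% and 83.3%. At the downstream fragment it was 20% of fetal and 25% of adult calls. Both became 33.3% at a score of at least 2 and 50% at 2.3, out of the few calls given above. With bins matched at either tolerance they rose to 80% and 100%. Active enhancers took 0% of the fetal and 100% of the adult calls of the downstream fragment at either stricter score. The values were 20% and 75% as deposited, and 60% and 75% with a mark in either population. The fetal to adult ratio of counts (log2) of the downstream fragment changed sign with scaling. Over all bins it went from 0.15 to -0.11 (all listed counts) and -0.011 (without contacts of at least 1000 counts). Over the common bins it went from 0.13 to -0.12, -0.025 and, scaled by the fragment's own counts, -0.014. Scaled by the median ratio of shared contacts, it kept its sign, at 0.049 and 0.035. No paired analysis was possible because the table gives 1 pooled value per population and batch.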
